A study of Mus musculus with 10 samples.

Results

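The receptors through which cells sense interferons are encoded in the mouse by Ifngr1 on chromosome 10 and by Ifnar2, Il10rb, Ifnar1 and Ifngr2, which stand in that order and on the same strand in a cluster on chromosome 16. These 5 genes of the 21951 protein-coding genes of GENCODE M21 were examined by ATAC-seq, in which a transposase inserts sequencing adapters into accessible chromatin. Every accessible region that overlapped one of the genes, or the 20 kb on either side of it, was included. In all, 48 of the 203916 regions of the series met this rule, 5 around Ifngr1 and 43 in the cluster, where neighboring genes share 6 regions.

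The cells were Myc-CaP, a prostate cancer line derived from a male FVB/NJ mouse. Groups were left untreated (Ctrl) or kept for 48 h with 2 µM oxaliplatin (Oxali), 2 µM cisplatin (Cispl), 1000 pg interferon-γ, for which the labels give no volume (IFNγ), or 2 µM oxaliplatin together with 1000 pg interferon-γ (Oxali + IFNγ). Each group had 2 libraries, which the authors pooled into 1 peak list. Differences between groups therefore have no replicate check and no p-value, and the 95% intervals below cover counting error only. A level is a mean over the cells of a culture, so a change in the share of cells with an open site and a change in every cell cannot be told apart.

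The interferon-γ receptor consists of IFNGR1, which binds the cytokine, and IFNGR2, which completes the signaling complex. IFNAR1 and IFNAR2 form the receptor of the type I interferons, with IFNAR2 as the chain of higher affinity. IL10RB is the shared second chain of the receptors for IL-10, IL-22 and the type III interferons (IFN-λ). All of these chains signal through kinases of the JAK family and STAT factors, and a palindrome in the DNA of many target genes is called the γ-activated site (GAS).

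The first sequences to consider are the promoters, because in Ctrl the start-site region held the highest level around each of the 5 genes. RefSeq promoters of 300 bases around the annotated start were matched for 4 of the 5 genes (GRCm38.p6, the coordinates of mm10), all on the plus strand. The letters are those of the reference strain C57BL/6J, not of the FVB/NJ cells. Capitals mark exact matches to searched motifs on either strand, which were the GAS (TTCNNNGAA), the core of the interferon-stimulated response element (ISRE; GAAA, any 2 bases, GAAA), AP-1 (TGANTCA), SP1 (GGGCGG), CRE (TGACGTCA), NF-κB, CTCF and the p53 response element (one repeat).
Ifngr1, chr10:19591699-19591998: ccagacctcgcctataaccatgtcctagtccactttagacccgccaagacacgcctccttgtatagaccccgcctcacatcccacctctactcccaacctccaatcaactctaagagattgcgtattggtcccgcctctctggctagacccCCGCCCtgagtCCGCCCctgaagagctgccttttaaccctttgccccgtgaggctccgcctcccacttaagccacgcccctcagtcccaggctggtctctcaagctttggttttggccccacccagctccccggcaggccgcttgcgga
Ifngr2, chr16:91546809-91547108: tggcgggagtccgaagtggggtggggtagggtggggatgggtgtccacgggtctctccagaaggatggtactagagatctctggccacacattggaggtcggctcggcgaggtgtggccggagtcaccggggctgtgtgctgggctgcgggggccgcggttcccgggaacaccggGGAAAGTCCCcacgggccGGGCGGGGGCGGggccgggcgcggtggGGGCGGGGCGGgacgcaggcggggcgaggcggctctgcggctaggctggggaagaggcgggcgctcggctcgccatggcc
Ifnar1, chr16:91484965-91485264: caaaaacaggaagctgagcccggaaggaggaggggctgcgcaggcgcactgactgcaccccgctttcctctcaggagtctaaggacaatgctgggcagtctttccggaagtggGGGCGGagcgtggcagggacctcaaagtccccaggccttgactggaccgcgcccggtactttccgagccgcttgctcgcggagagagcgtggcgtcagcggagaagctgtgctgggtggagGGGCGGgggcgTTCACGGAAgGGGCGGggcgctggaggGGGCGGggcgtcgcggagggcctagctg
Ifnar2, chr16:91372533-91372832: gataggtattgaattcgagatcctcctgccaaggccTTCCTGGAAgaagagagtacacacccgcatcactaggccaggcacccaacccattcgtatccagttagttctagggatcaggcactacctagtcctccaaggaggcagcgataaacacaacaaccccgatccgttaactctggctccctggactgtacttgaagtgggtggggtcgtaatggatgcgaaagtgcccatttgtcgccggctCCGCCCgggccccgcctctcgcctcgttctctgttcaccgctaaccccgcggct

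All 4 promoters held the SP1 hexamer, which 35.7% of all 32851 RefSeq promoters hold. A GAS match lay in the promoters of Ifnar1 (TTCACGGAA) and Ifnar2 (TTCCTGGAA), against 8.30% of all promoters. The promoter of Ifngr2 held an NF-κB match, read as GGAAAGTCCC on the printed strand, against 8.46% of all promoters. In the Ifngr2 promoter, 2 of the SP1 matches share 1 base. None of the 4 promoters had an ISRE core, AP-1, CRE, CTCF or p53 match in these windows, against 3.44, 7.81, 1.79, 0.457 and 8.36% of all promoters. Their GC content was 60.3% for Ifngr1, 74.3% for Ifngr2, 68.3% for Ifnar1 and 57% for Ifnar2, all above the median of 52.7% over all promoters. A match of letters is a description and says nothing of binding.

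The second set shows the 201 bases around the summit of 4 distal regions, chosen after their values were seen. For Ifnar1, Ifnar2 and Ifngr2 it is the region of the largest ratio of Oxali + IFNγ to Ctrl among those at a level of 10 or more, and for Ifngr1 the highest region that Ctrl lacks. They are named by the distance in bp of their summit from the GENCODE start of the nearest receptor gene, and are printed on the plus strand from the same build.
Ifnar1 -7013, chr16:91478125-91478325: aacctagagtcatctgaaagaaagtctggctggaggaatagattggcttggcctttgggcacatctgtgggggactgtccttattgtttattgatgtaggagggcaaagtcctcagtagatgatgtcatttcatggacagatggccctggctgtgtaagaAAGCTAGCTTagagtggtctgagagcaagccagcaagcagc
Ifnar2 -19999, chr16:91352684-91352884: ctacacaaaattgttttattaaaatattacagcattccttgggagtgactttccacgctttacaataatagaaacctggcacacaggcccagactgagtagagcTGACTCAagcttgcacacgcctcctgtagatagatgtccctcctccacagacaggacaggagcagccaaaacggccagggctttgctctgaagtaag
Ifngr2 -19378, chr16:91527594-91527794: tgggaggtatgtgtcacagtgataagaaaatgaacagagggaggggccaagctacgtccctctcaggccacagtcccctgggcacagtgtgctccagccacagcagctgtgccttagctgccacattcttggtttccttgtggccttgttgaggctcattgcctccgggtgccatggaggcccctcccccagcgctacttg
Ifngr1 +2499, chr10:19594348-19594548: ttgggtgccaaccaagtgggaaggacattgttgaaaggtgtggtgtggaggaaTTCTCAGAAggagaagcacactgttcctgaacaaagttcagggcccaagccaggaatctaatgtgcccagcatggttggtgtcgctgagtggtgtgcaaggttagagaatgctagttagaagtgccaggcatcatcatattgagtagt

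The window upstream of Ifnar1 held a match to a single repeat of the p53 response element. That of Ifnar2 held the AP-1 match TGACTCA, and that in the intron of Ifngr1 the GAS match TTCTCAGAA. The window upstream of Ifngr2 held none of the 8 motifs. Over the 48 receptor windows, 13 held AP-1 (27.1%, against 21.3% of 203903 windows of the series), 7 held SP1 (14.6% against 8.59%), and 5 each held GAS (10.4% against 6.06%) and NF-κB (10.4% against 4.04%). The ISRE core was in 1 window (2.08% against 2.60%), CTCF in 1 (2.08% against 3.22%), the single repeat of the p53 response element in 4 (8.33% against 6.74%) and CRE in 0 (against 0.477%).

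A level is here the number of reads piled up at the summit divided by the genome-wide background of the same list, so a value of 10 is a pileup of 10 times that background. The background, which scales with depth, was between 9.62 reads (IFNγ) and 13.8 reads (Cispl), or 79.3 to 113% of that of Ctrl. A region counted as called at a q-value of at most 0.01. Among the markers fixed for prostate epithelium, start-site regions were called in Ctrl at Krt8, Krt18, Foxa1 and Hoxb13 and not at Cdh1 and Epcam, and 1 of 5 leukocyte, 1 of 3 endothelial and 2 of 3 fibroblast markers had one. Over the 83543 regions called in every list, the median level relative to Ctrl was 1.29 under Oxali, 1.19 under Cispl, 0.856 under IFNγ and 1.29 under Oxali + IFNγ. Ratios are therefore also given relative to that shift, as shift-adjusted ratios.

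Of the regions around the receptors, 24 of 48 were called in all 5 groups.

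**Figure D1:**
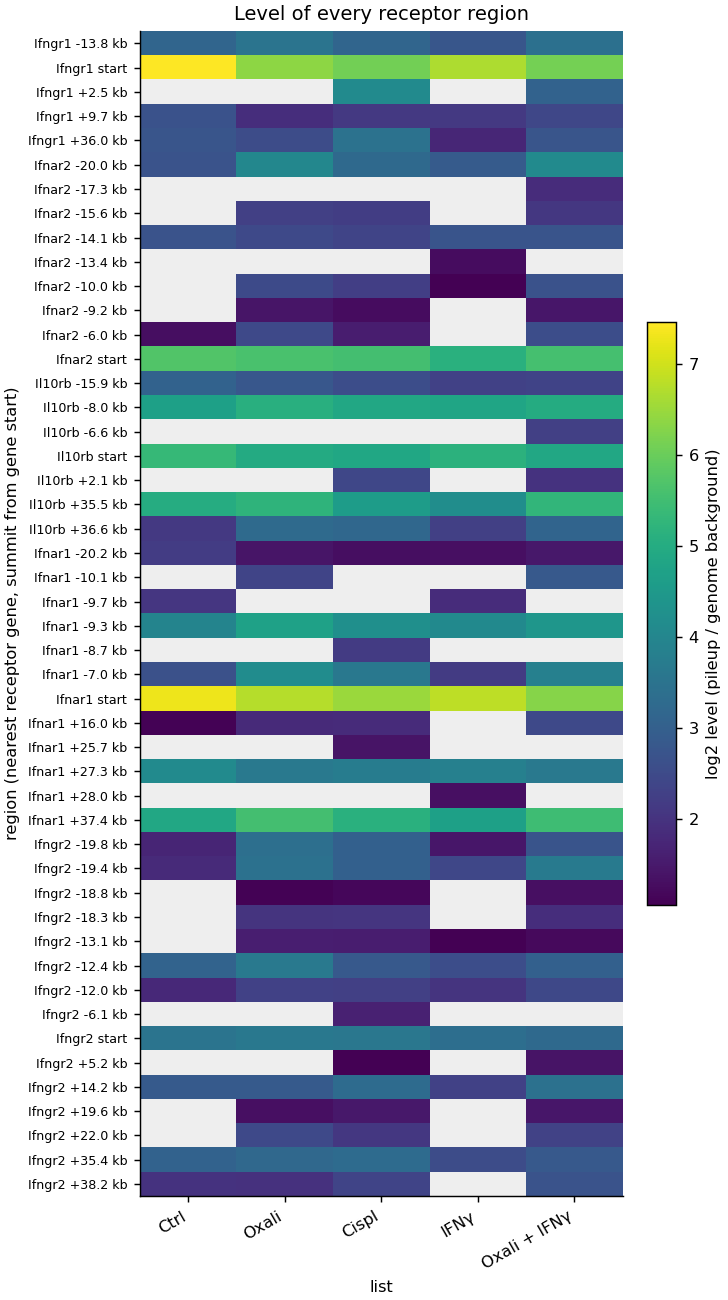
Level of each of the 48 regions (rows, in genome order, named by nearest receptor gene and distance of the summit from its start) in the 5 lists (columns), as log2 of pileup over genome background; pale gray marks a region that is not in the deposited list. The start-site rows of Ifngr1 and Ifnar1 are the brightest in all 5 columns, and most gaps lie in the Ctrl and IFNγ columns.

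Of the 48 regions, 29 were called in Ctrl (60.4%, against 52.7% of all regions of the series), 36 under Oxali (75% against 70.5%), 42 under Cispl (87.5% against 79.1%), 27 under IFNγ (56.3% against 50.3%) and 42 under Oxali + IFNγ (87.5% against 79.4%). In every group the share was thus a few percentage points above that of the series, and the groups stood in the same order apart from the tie of Cispl and Oxali + IFNγ. Those called in all 5 lists were 50% of the 48 (against 41.0%), and 7 were called in the 3 lists with a platinum drug and in neither of the others (14.6% against 11.5%). Called in the IFNγ list and in no other were 2 regions (4.17% against 2.08%). By gene, 4 of 5 regions at Ifngr1, 6 of 15 at Ifngr2, 6 of 13 at Ifnar1, 6 of 14 at Ifnar2 and 5 of 7 at Il10rb were called in every list. By position, 26 of the 48 summits lay between genes, 12 in introns, 7 in non-coding genes and 3 in exons that are untranslated or non-coding. Start-site regions, which overlap 1 kb on either side of a protein-coding start, made up 5 of them (10.4%, against 9.74% over the series).

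**Figure D2:**
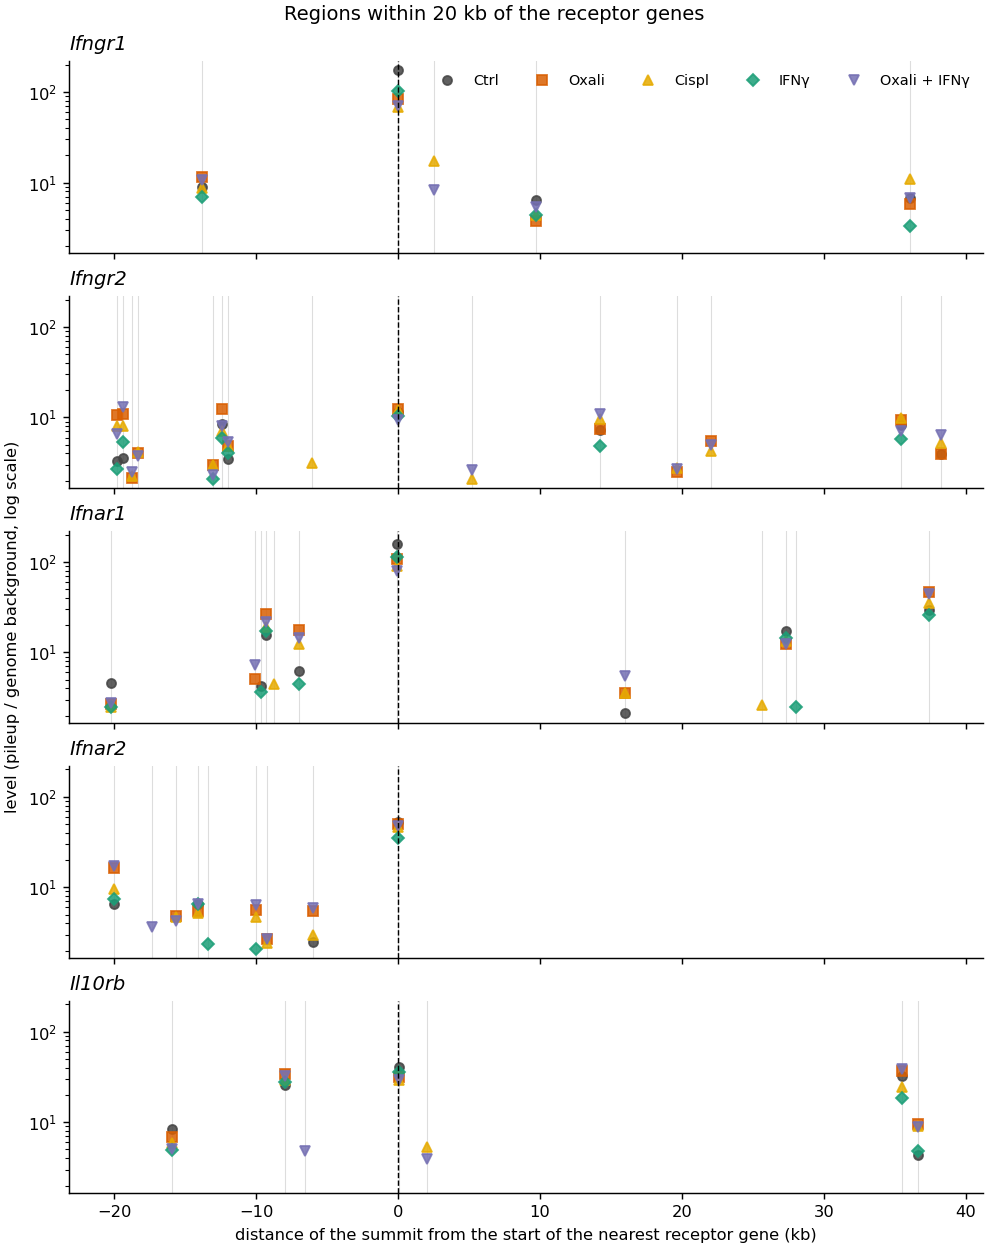
Level of each region (log axis, pileup over genome background) against the distance of its summit from the start of the nearest receptor gene (kb), with a panel per gene and a symbol per list. Regions within 20 kb of a gene body were included, so panels reach as far as the gene, its flanks and its neighbors allow; Ifngr1 and Ifnar1 each have 1 dominant region at the start, whereas the start-site region of Ifngr2 (12.2) lies close to the distal one at -12430 bp (12.5) under Oxali.

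The start sites differed widely among the receptors. In Ctrl the level was 176 (95% interval 168 to 183) at Ifngr1, 158 (151 to 165) at Ifnar1, 53 (49.0 to 57.2) at Ifnar2, 40.6 (37.1 to 44.4) at Il10rb and 11.5 (9.70 to 13.6) at Ifngr2. The intervals of neighbors in this order do not overlap, so the order exceeds counting error, although no replicate spread is known. The signaling chain Ifngr2 thus had a far lower level at its start than its partner Ifngr1. A level is a pileup at 1 position and does not depend on gene length.

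**Figure D3:**
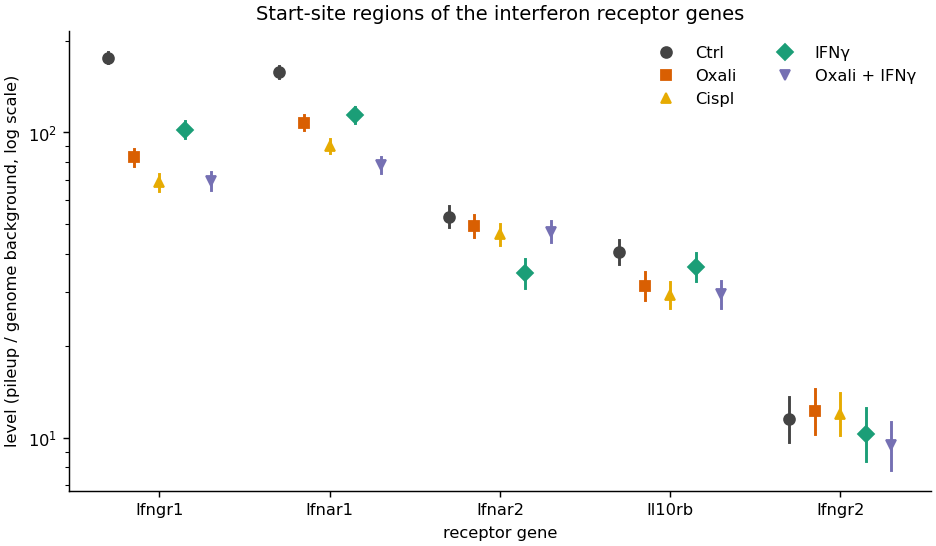
Level at the start-site region of each receptor gene in the 5 lists (log axis, pileup over genome background), with exact 95% Poisson intervals as bars. Ifngr1 and Ifnar1 are highest in Ctrl (176 and 158) and lower in all 4 treated lists, whereas the intervals of Ifngr2 overlap across all lists.

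Ifngr1, the ligand-binding chain for interferon-γ, had the largest relative differences at its start (chr10:19591373-19592493, summit at -40 bp). The level was 176 in Ctrl, 83.1 under Oxali, 68.7 under Cispl, 102 under IFNγ and 69.5 under Oxali + IFNγ. Every treated list was below Ctrl and the 3 platinum lists were below IFNγ. The ratio to Ctrl was 0.473 under Oxali (0.438 to 0.511), 0.391 under Cispl (0.362 to 0.422), 0.581 under IFNγ (0.539 to 0.627) and 0.396 under Oxali + IFNγ (0.365 to 0.428), and the shift-adjusted ratios were 0.367, 0.328, 0.679 and 0.307. Relative to the local background of each list, the ratios were nearer to 1, at 0.668, 0.576, 0.807 and 0.722. Strong start sites as a class were also lower, with median ratios of 0.667, 0.575, 0.651 and 0.469 over the 5196 start-site regions of Ctrl level 100 or more. Under Oxali, Cispl and Oxali + IFNγ, Ifngr1 lay below the lower quartiles of that class, which were 0.610, 0.525 and 0.406. Under IFNγ its ratio was close to the lower quartile of 0.578.

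In the gene body of Ifngr1, an intronic region (chr10:19594306-19594784, summit at +2499 bp) was called with 240 reads under Cispl (level 17.4) and with 108 reads under Oxali + IFNγ (level 8.37). It was not in the Ctrl, Oxali or IFNγ list. MACS2 measures a peak against the local background, which is high beside the start site. These 3 lists give no background for the intron, so that of the start-site summit was used in its place. At that background, a region had to reach a level of 10.1 in Ctrl, 7.45 under Oxali and 7.69 under IFNγ to be deposited. The Cispl level was above all 3 of these limits. The level of Oxali + IFNγ was above the limits of Oxali and IFNγ, but an equal level would not have been detectable in Ctrl. The 201 bases around its summit, printed above, hold the GAS match.

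The other regions around Ifngr1 were weaker. The intronic region at +9727 bp had levels of 6.34, 3.73, 4.36, 4.37 and 5.35 in Ctrl, Oxali, Cispl, IFNγ and Oxali + IFNγ, and the ratio of Oxali to Ctrl was 0.587 (0.393 to 0.866; shift-adjusted 0.456). The region at +36042 bp lies in an intron of the neighbor Il22ra2, which encodes a soluble decoy receptor for IL-22. Its levels were 6.67, 5.86, 11.0, 3.33 and 6.74 in the same order, so Cispl was highest and IFNγ lowest. The ratio to Ctrl was 1.66 under Cispl (1.26 to 2.2; shift-adjusted 1.39) and 0.498 under IFNγ (0.320 to 0.759; shift-adjusted 0.582).

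Ifngr2, the second chain of the interferon-γ receptor, had levels at its start that differed from Ctrl by less than the counting error before adjustment for the shift (chr16:91546623-91547908, summit at +4 bp). The values were 11.5 in Ctrl, 12.2 under Oxali, 12.0 under Cispl, 10.3 under IFNγ and 9.45 under Oxali + IFNγ. All 4 ratios to Ctrl had intervals that include 1, at 1.06 (0.833 to 1.35), 1.04 (0.825 to 1.31), 0.892 (0.683 to 1.16) and 0.820 (0.638 to 1.05). The shift-adjusted ratios were 0.824, 0.873, 1.04 and 0.636, so the direction turned with the scaling under Oxali, Cispl and IFNγ and stayed below 1 under Oxali + IFNγ. Start-site regions of the same class, with a Ctrl level under 30 and at least 10, had median ratios of 1.05, 0.986, 0.839 and 0.979, close to those of Ifngr2 except under Oxali + IFNγ.

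Distal regions of Ifngr2 differed more between the lists. A region far upstream (chr16:91527461-91528011, summit at -19378 bp) had a level of 3.54 in Ctrl, 10.8 under Oxali, 8.06 under Cispl, 5.30 under IFNγ and 12.9 under Oxali + IFNγ. The platinum lists were all above IFNγ and Ctrl. Its ratio to Ctrl was 3.06 (2.14 to 4.43), 2.28 (1.59 to 3.32), 1.50 (0.978 to 2.30) and 3.65 (2.60 to 5.23) in the same order, and 2.37, 1.91, 1.75 and 2.83 after adjustment for the shift. A neighbor at -19784 bp, which also lies in the window of Ifnar1, had levels of 3.30, 10.6, 8.06, 2.70 and 6.59, and relative to the local background its ratio to Ctrl was 1.91 under Oxali and 1.20 under Oxali + IFNγ. Both have fewer than 50 reads at the summit in Ctrl and were singled out after their values were seen.

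Among regions absent from the Ctrl list, the one of the highest level at Ifngr2 lay 3′ of the gene (chr16:91568961-91569337, summit at +22035 bp). It was called under Oxali (level 5.50), Cispl (4.29) and Oxali + IFNγ (4.96) and was not in the IFNγ list. In the mirror case, the region at +38247 bp, in an intron of Tmem50b, was called in Ctrl (3.95), Oxali (3.90), Cispl (5.16) and Oxali + IFNγ (6.43) and missing under IFNγ. Around Ifngr2, 7 of the 15 regions called under Cispl were gained (46.7%, against 37.3% of all called regions), with no test of the difference. These were weak, with levels from 2.11 to 4.29.

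Ifnar1, a chain of the type I interferon receptor, resembled the strong start sites of the genome. Its start-site region (chr16:91484542-91485834, summit at -97 bp) had a level of 158 in Ctrl, 108 under Oxali, 90.3 under Cispl, 114 under IFNγ and 78.3 under Oxali + IFNγ. All treated lists were below Ctrl, Oxali + IFNγ the furthest. The ratios were 0.681 (0.634 to 0.733), 0.571 (0.531 to 0.614), 0.720 (0.667 to 0.775) and 0.495 (0.458 to 0.534), and 0.529, 0.480, 0.841 and 0.384 after adjustment for the shift. Relative to the local background they were 0.896, 0.824, 0.923 and 0.865, with Cispl the lowest. The ratios given first, without either correction, lay within the quartiles of the class of Ctrl level 100 or more. These ran from 0.610 to 0.735, 0.525 to 0.631, 0.578 to 0.722 and 0.406 to 0.545.

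Among the regions upstream of Ifnar1, the one at -7013 bp was higher in the platinum lists than in Ctrl under both scalings. This region (chr16:91477598-91478550), whose summit sequence is printed above, had a level of 6.26 in Ctrl, 17.8 under Oxali, 12.4 under Cispl, 4.47 under IFNγ and 14.3 under Oxali + IFNγ. The 3 platinum lists were above Ctrl, and IFNγ was the lowest of all. Oxali was 2.85 times Ctrl (2.18 to 3.76; shift-adjusted 2.21), Cispl 1.97 times (1.50 to 2.62; 1.66), IFNγ 0.714 times (0.479 to 1.05; 0.834) and Oxali + IFNγ 2.28 times (1.73 to 3.02; 1.77). Its local background was also higher in the platinum lists, at 25.8, 25.6 and 27.4 reads against 16.1 in Ctrl and 13.5 under IFNγ, and relative to it the ratios were 1.67 under Oxali, 1.42 under Cispl, 0.673 under IFNγ and 1.44 under Oxali + IFNγ. Close by, the region at -9275 bp in the non-coding gene Gm49626 had levels of 15.5, 26.3, 18.9, 17.0 and 21.5. That is 1.70 times Ctrl under Oxali (1.41 to 2.05; shift-adjusted 1.32) and 1.22 times under Cispl (1.01 to 1.48; 1.02). Relative to the local background, neither Oxali (0.987) nor Cispl (0.851) was above Ctrl.

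Some of the gains and losses at Ifnar1 were small intervals on the flanks of that strong region. The interval at -9665 bp was called in Ctrl (level 4.2) and IFNγ (3.64) and was the only lost region of the whole set under Oxali, under Cispl and under Oxali + IFNγ. The one at -10106 bp was called under Oxali (5.15) and Oxali + IFNγ (7.21), and the one at -8733 bp under Cispl (4.5). These 3 intervals were 170 to 238 bp wide, and the one at -9665 bp had a region within 500 bp in each of the lists that lacked it. At -20246 bp all treated lists were lower than Ctrl, with levels of 4.61 in Ctrl, 2.66 under Oxali, 2.47 under Cispl, 2.49 under IFNγ and 2.79 under Oxali + IFNγ. The ratios were 0.577 (0.357 to 0.915), 0.536 (0.339 to 0.835), 0.541 (0.321 to 0.887) and 0.605 (0.386 to 0.936), and remained under 1 after adjustment, at 0.448, 0.450, 0.632 and 0.469.

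Beyond the 3′ end of Ifnar1, a strong region between the gene and Ifngr2 (summit at +37425 bp) had levels of 29.6, 46.6, 34.9, 26.1 and 44.2. Under Oxali this was 1.57 times Ctrl (1.37 to 1.81; shift-adjusted 1.22), and under Oxali + IFNγ 1.50 times (1.31 to 1.71; 1.16). Under Cispl it was 1.18 times (1.03 to 1.36), which turned to 0.991 after adjustment. The local background of this region was also higher with oxaliplatin, at 22.4 reads under Oxali and 25.1 under Oxali + IFNγ against 16.3 in Ctrl. Relative to the local background, the ratios to Ctrl were near 1, at 1.08 under Oxali and 1.05 under Oxali + IFNγ. On that scale Cispl and IFNγ were below Ctrl.

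Ifnar2, which binds type I interferons with the higher affinity, differed from Ctrl at its start less with platinum than under IFNγ before adjustment for the shift, but not after it. The start-site region (chr16:91372326-91373800, summit at +10 bp) had a level of 53 in Ctrl, 49.4 under Oxali, 46.4 under Cispl, 34.6 under IFNγ and 47.3 under Oxali + IFNγ. IFNγ alone stood apart from the others as the lowest. The ratio was 0.933 under Oxali (0.831 to 1.05), 0.875 under Cispl (0.783 to 0.978), 0.653 under IFNγ (0.571 to 0.747) and 0.894 under Oxali + IFNγ (0.799 to 1.00). After adjustment for the shift the 4 values drew together, at 0.724, 0.735, 0.763 and 0.693. Start-site regions with a Ctrl level under 100 and at least 30 had median ratios of 0.792, 0.700, 0.711 and 0.616.

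Upstream of Ifnar2, the region at -19999 bp (chr16:91351944-91353160), shown above with its AP-1 match, had a level of 6.51 in Ctrl, 16.2 under Oxali, 9.52 under Cispl, 7.38 under IFNγ and 17.3 under Oxali + IFNγ. Both lists with oxaliplatin were well above the rest. They were 2.49 times (1.91 to 3.29; shift-adjusted 1.94) and 2.66 times Ctrl (2.05 to 3.48; 2.06), against 1.46 times under Cispl (1.10 to 1.96; 1.23) and 1.13 times under IFNγ (0.811 to 1.58; 1.32). The local background was higher in these lists too, at 18.6 reads under Oxali and 22.3 under Oxali + IFNγ against 12.1 in Ctrl, and relative to it the ratios were 1.54 and 1.58, with those under Cispl and IFNγ nearer to 1. The strongest region at Ifnar2 absent from the Ctrl list was at -10038 bp, with levels of 5.59 under Oxali, 4.72 under Cispl and 6.35 under Oxali + IFNγ, and an uncalled 2.08 under IFNγ. The region at -6033 bp was in the Ctrl list (2.47) and in those under Oxali (5.50), Cispl (2.98) and Oxali + IFNγ (5.97), and was missing under IFNγ.

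Il10rb, the chain shared with the IL-10 and IL-22 receptors, had a start-site level (chr16:91405665-91407203, summit at +78 bp) of 40.6 in Ctrl, 31.4 under Oxali, 29.4 under Cispl, 36.3 under IFNγ and 29.5 under Oxali + IFNγ. The 3 platinum lists were close to each other and below Ctrl and IFNγ. Their ratios to Ctrl were 0.773 (0.673 to 0.888), 0.725 (0.634 to 0.828) and 0.727 (0.634 to 0.833), and 0.6, 0.609 and 0.564 after adjustment. Under IFNγ the ratio was 0.893 (0.776 to 1.03), which turned to 1.04 after adjustment.

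Distal regions of Il10rb included a pair inside the non-coding gene Gm49625. The stronger one (summit at +35528 bp) had levels of 32.5, 37.1, 24.2, 18.3 and 38.4 in Ctrl, Oxali, Cispl, IFNγ and Oxali + IFNγ. Here Cispl and IFNγ were low, at 0.745 (0.642 to 0.865; shift-adjusted 0.626) and 0.564 times Ctrl (0.469 to 0.675; 0.659), whereas Oxali was at 1.14 times (0.993 to 1.31; 0.887). Its neighbor at +36595 bp had levels of 4.37, 9.58, 9.15, 4.78 and 8.76. That is 2.19 times Ctrl under Oxali (1.57 to 3.11; shift-adjusted 1.70), 2.1 times under Cispl (1.51 to 2.95; 1.76), 1.10 times under IFNγ (0.721 to 1.66; 1.28) and 2.01 times under Oxali + IFNγ (1.43 to 2.83; 1.56). Part of this region, a Ctrl interval with 53 reads, met no interval of the IFNγ list and counted as lost there, although the IFNγ list has another interval in the same merged region. The intronic region at +2063 bp was called only under Cispl (5.30) and Oxali + IFNγ (3.95).

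Regions gained by treatment, meaning called there with no overlap with any region of the Ctrl list, were no more frequent around the receptors than elsewhere. Gains and losses were counted in each list before the lists were merged, so the totals differ from those over merged regions given above. Under Oxali + IFNγ, the Ifngr1 region at +2499 bp counts as 2 regions here. Under Oxali, 8 of 35 called regions were gained (22.9%, against 32.5% of all called regions). Under Cispl the count was 14 of 41 (34.1% against 37.3%), under IFNγ 2 of 29 (6.90% against 12.9%) and under Oxali + IFNγ 15 of 42 (35.7% against 38.4%). None of the Oxali gains lay around Ifngr1 or Il10rb. Of the 30 regions called in Ctrl, 1 was lost under Oxali (3.33% against 9.11%), 1 under Cispl (3.33% against 5.90%), 4 under IFNγ (13.3% against 15.8%) and 1 under Oxali + IFNγ (3.33% against 7.59%). All 8 shares were below those of the series. With the 100000 strongest regions of each list, the called regions were 26 in Ctrl, 26 under Oxali, 27 under Cispl, 25 under IFNγ and 29 under Oxali + IFNγ, so the lists differed less. Gains were then 4, 4, 0 and 5 and losses 4, 3, 2 and 2, as many losses as gains under Oxali, and 7 of the 8 shares were below those of the series, all but the losses under Oxali (15.4% against 15.3%). All 4 comparisons share the Ctrl list.

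Level ratios gave a similar result.

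**Figure D4:**
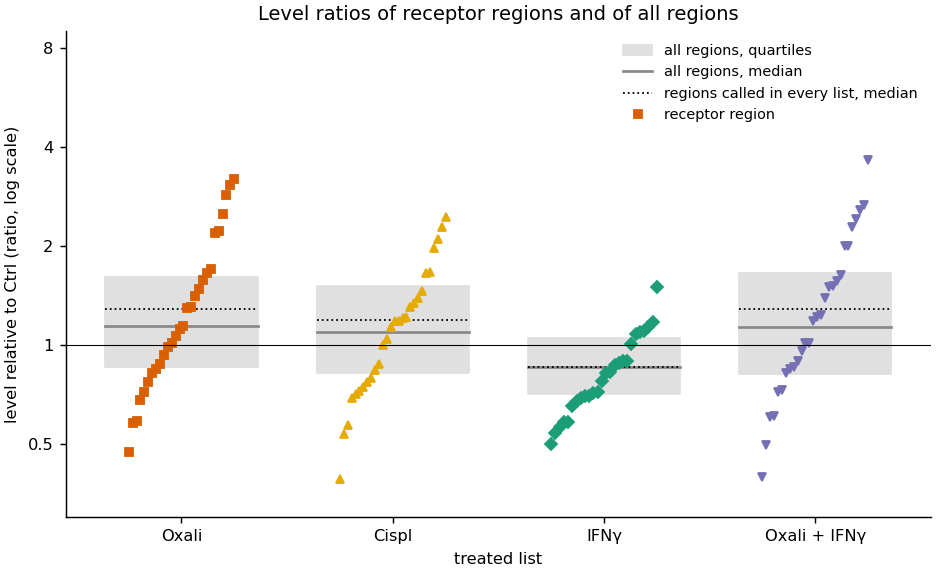
Ratio of the level in each treated list to Ctrl (log axis) for receptor regions in both lists (symbols, sorted by ratio), with the quartiles (gray box) and median (gray line) of all regions and the median of regions called in every list (dotted line). The receptor regions spread over the range of all regions, with medians of 1.13, 1.16, 0.799 and 1.20 from left to right.

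Under Oxali, the median ratio over 28 receptor regions was 1.13, against 1.14 over all regions, and the lowest and highest were 0.473 and 3.20. At least 1.5 times higher were 9 of 28 (32.1%, against 29.3% of all regions) and at least 1.5 times lower 3 (10.7% against 7.69%). Under Cispl the median was 1.16 against 1.09, with 6 of 28 higher (21.4% against 25.6%) and 3 lower (10.7% against 12.0%). Under IFNγ it was 0.799 against 0.853, and 0 of 26 were higher (against 4.27%) and 6 lower (23.1% against 18.5%). Under Oxali + IFNγ it was 1.20 against 1.13, with 10 of 28 higher (35.7% against 30.4%) and 4 lower (14.3%, also 14.3% of all).

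The split between higher and lower depended on the scaling, as it did over the whole series. After adjustment for the shift, 6 of 28 were higher under Oxali (21.4%, against 16.0% of all regions) and 8 lower (28.6% against 25.2%). Under Cispl 4 were higher (14.3% against 15.9%) and 9 lower (32.1% against 22.6%). Under IFNγ 1 of 26 was higher (3.85% against 10.2%), the Ifngr2 region at -19378 bp, and 3 were lower (11.5% against 7.07%). Under Oxali + IFNγ 7 of 28 were higher (25.0% against 17.4%) and 9 lower (32.1% against 28.6%).

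Cisplatin and oxaliplatin, platinum drugs that differ in the ligands held by the metal, were given at the same dose and for the same time.

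**Figure D5:**
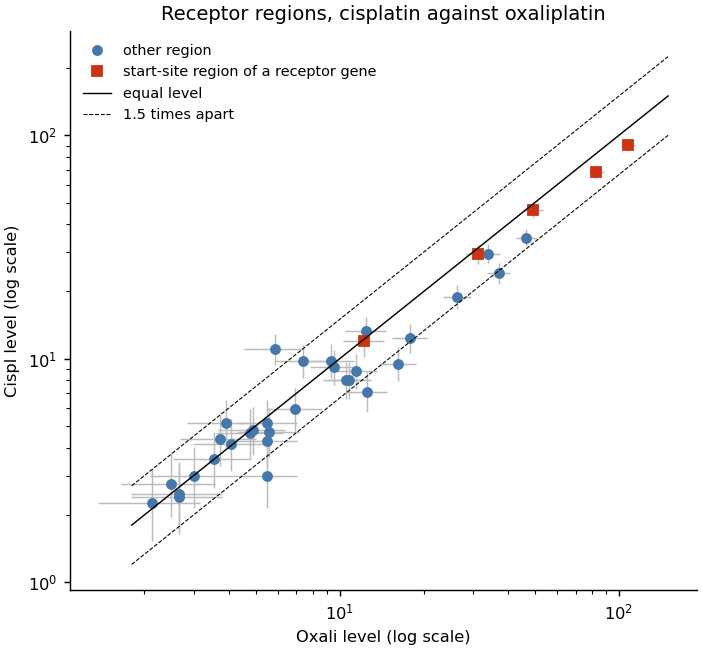
Level under Cispl against level under Oxali (log axes, pileup over genome background) for the 36 receptor regions in both lists, with exact 95% Poisson intervals. Most points lie between the dashed lines, which mark levels 1.5 times apart, and the start-site regions (squares) lie on or just below the line of equal level.

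Over the 36 regions in both lists, the median ratio of Cispl to Oxali was 0.933, against 0.932 over all regions. Only 1 was at least 1.5 times higher under Cispl (2.78% against 6.96% of all regions), the Il22ra2 intron near Ifngr1, at 1.89 times (1.40 to 2.56; shift-adjusted 2.04). At least 1.5 times lower under Cispl were 4 (11.1% against 12.2%), which were Ifnar2 -6033 at 0.542 (0.356 to 0.817), Ifngr2 -12430 at 0.569 (0.435 to 0.742), Ifnar2 -19999 at 0.586 (0.465 to 0.738) and Il10rb +35528 at 0.652 (0.563 to 0.755). After adjustment these were 0.586, 0.616, 0.634 and 0.706. At the start sites the ratio was 0.826 (0.754 to 0.905) at Ifngr1, 0.838 (0.774 to 0.908) at Ifnar1, 0.938 (0.836 to 1.05) at Ifnar2, 0.937 (0.810 to 1.08) at Il10rb and 0.979 (0.776 to 1.24) at Ifngr2. For the last 3 genes the interval of counting error includes 1, which bounds the difference but does not show that the drugs acted alike.

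Adding IFNγ to oxaliplatin left most receptor regions near their Oxali level. The median ratio of Oxali + IFNγ to Oxali was 0.958 over 37 regions, against 0.995 over all regions. At the start sites the ratio was 0.726 (0.667 to 0.790) at Ifnar1, 0.772 (0.6 to 0.992) at Ifngr2, 0.836 (0.762 to 0.917) at Ifngr1, 0.940 (0.811 to 1.09) at Il10rb and 0.958 (0.853 to 1.08) at Ifnar2. All start-site regions of Ctrl level 100 or more had a median of 0.706 in this comparison. At least 1.5 times higher were 2 of 37 regions (5.41% against 4.02% of all regions), Ifngr2 +38247 at 1.65 (1.13 to 2.43) and Ifnar1 +15997 at 1.55 (1.04 to 2.34). At least 1.5 times lower were 2 (5.41% against 4.54%), Ifngr2 -19784 at 0.624 (0.467 to 0.831) and Ifngr2 -12430 at 0.650 (0.5 to 0.843). Relative to IFNγ alone, the median of Oxali + IFNγ was 1.34 over 27 regions, against 1.26 over all regions, and 0.888 against 0.835 after adjustment.

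The pattern over the 4 treatments was matched to that of other genes with a start-site region called in every list and a Ctrl level within 1.5 times of the member. The measure was the root mean square difference of the log2 ratios to Ctrl, over 4 ratios that share 1 Ctrl list. For Ifngr1 the nearest of 4490 genes were Vcp (0.077), Sin3a (0.083) and Wbp1l (0.085). Among the nearest to Ifnar1 of 5133 genes were Rpl37 (0.027) and Ckap2l (0.027). Ifnar2 was nearest to Stx7 (0.060), Pggt1b (0.063) and Xrcc2 (0.066) of 2677 genes, and Il10rb to Csf3 (0.026), Cd46 (0.029) and Rassf5 (0.040) of 1691. For Ifngr2 the nearest of 648 genes were Fam169a (0.084), Ppp1r27 (0.092) and Zfp711 (0.103).

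Other genes of the pathway were counted whole. Of the 8 ligand genes, 3 had a start-site region called in Ctrl, those of Ifnb1 (level 9.23), Ifne (3.05) and Ifnl3 (7.00), and the window of Ifng itself held no region. Oxali was at least 1.5 times above Ctrl at 2 of these 3 start sites, Ifne and Ifnl3, with ratios of 1.69 and 1.86, against 8.62% of all start-site regions. After adjustment for the shift the ratios were 1.31 and 1.45 and 0 of the 3 passed, against 4.18% of all start-site regions. Before adjustment, the share of start-site regions that passed was larger at lower Ctrl levels. It was 0% at 100 or more, 1.07% at 30 to 100 and 14.7% at 10 to 30. No share was computed below 10, where these 3 sites lie, so 8.62% is not a like comparison for them. Of the 6 other receptors of the family, 1 was called at its start in Ctrl, Il20ra, a chain for IL-20 family cytokines. It had levels of 5.35, 11.5, 11.1, 4.57 and 14.2 in Ctrl, Oxali, Cispl, IFNγ and Oxali + IFNγ, and Il22ra1 was called at its start in the 4 treated lists only.

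The downstream signaling genes named here had start sites called in every list. Of the kinases Jak1, Jak2 and Tyk2, 3 of 3 were called at their start in every list, and the median ratio to Ctrl was 0.636 under Oxali, 0.508 under Cispl, 0.715 under IFNγ and 0.516 under Oxali + IFNγ. The transducers Stat2 and Irf9 were also called at their start in every list, with ratios of 0.616, 0.536, 0.688 and 0.488 at Stat2 and 0.680, 0.673, 0.646 and 0.549 at Irf9. The inhibitors Socs1, Socs3, Usp18 and Ptpn6 were called in 4 of 4, with medians of 0.723, 0.682, 0.763 and 0.581. At least 1.5 times lower under Oxali were 2 of the 3 kinases, Jak1 (0.636) and Tyk2 (0.546), the transducer Stat2 (0.616), and 0 of the 4 inhibitors, against 25.1% of all start-site regions, and none of these kinases and inhibitors was that much higher. After adjustment for the shift, 3 of 3 kinases and 3 of 4 inhibitors, all but Usp18, were at least 1.5 times lower, against 62.0% of all start-site regions. The 3 kinases, Stat2, Socs1 and Socs3 had Ctrl levels above 100. In that class 49.8% of start-site regions were that much lower under Oxali, and 95.1% after adjustment. Usp18 and Ptpn6 had Ctrl levels of 30 to 100, where the shares were 17.3% and 65.5%. Usp18, which restrains signaling at IFNAR2, had levels of 65.9, 69.6, 59.6, 55.0 and 61.1, the most even of the inhibitors across the 5 lists.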

How the data were processed

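ATAC-seq libraries of Myc-CaP cells (10 libraries, 5 groups of 2) were trimmed, aligned to mm10 with Bowtie2 (v.2.2.8), filtered by mapping quality and freed of duplicates and mitochondrial reads by the authors. The authors then pooled each group and called peaks with MACS2 (v.2.1.0; p of 0.01, extension 150 bp, no control library), and removed blacklisted sequence. In the deposited lists, fold is (pileup + 1) / (local background + 1). The deposited −log10 p-value is a Poisson tail at the summit, and the −log10 q-value, also deposited, is that p adjusted within the list. The Cispl list ends at a −log10 p of 2.99 and the others at 2.00, so weak regions are missing from it.

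From the deposited fold and −log10 p the pileup and background of each summit were solved. The pileup was within 0.05 of a whole number for at least 99.998% of summits, and all of 19942 simulated peaks were recovered. The lowest background of a list is its genome background, and a level is the pileup divided by it. Summits of 1 interval were merged, and overlapping regions of the 5 lists were merged when at least 1 list called them. Intervals are 95% exact Poisson (levels) or conditional exact binomial (ratios), cover counting error only, and may be too narrow since both ends of a fragment can count. The shift-adjusted ratio divides each pileup by the median pileup of the regions called in every list. Python 3.11.15, SciPy 1.17.1, GENCODE M21 and GRCm38.p6 were used.

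Members, gene lists and markers were chosen with earlier results of these data known, and some members of those lists are not reported here. Described singly were the start-site region and the highest gained and lost region of each gene, and per treatment the 3 highest and 3 lowest ratios among regions with at least 50 Ctrl reads. Other regions given singly, such as Ifnar1 +37425 and -8733 and Ifngr2 -19378 and -19784, were chosen after their values were seen. Classes of Ctrl level (10, 30 and 100) were chosen after seeing the data. Alternatives were a stricter q-value, a single −log10 p of at least 3, equal ranks, a 500 bp gap for gains and losses, other scalings, 5 kb flanks, the cluster as 1 span and regions called in every list.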

Additional observations from a re-analysis of the deposited data

How the results depend on the processing

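No paired analysis was possible because each list merges both libraries of its group, and leaving out a replicate could not be done for the same reason. Without replicates, weak regions are the least reliable, most of all in the shallowest list, IFNγ. Counts below are of the regions of each list before the lists were merged. With the 100000 strongest regions of each list (equal ranks), receptor regions called were 26 in Ctrl rather than 30, 26 under Oxali rather than 35, 27 under Cispl rather than 41, 25 under IFNγ rather than 29 and 29 under Oxali + IFNγ rather than 42. Gained regions were then 4 under Oxali, 4 under Cispl, 0 under IFNγ and 5 under Oxali + IFNγ, and lost regions 4, 3, 2 and 2. At a q-value of at most 1e-05, 0 regions were gained under IFNγ, 9 were gained under Oxali + IFNγ and 2 were lost under IFNγ. When no other region was allowed within 500 bp, lost regions were 0 under Oxali, 0 under Cispl and 0 under Oxali + IFNγ, and 0 were gained under IFNγ. Scaled by the regions called in every list, the median ratio to Ctrl reversed under Oxali (0.878), Cispl (0.971) and Oxali + IFNγ (0.929), moved under IFNγ (0.934), and reversed for Cispl to Oxali (1.01) and for Oxali + IFNγ to IFNγ (0.888). Over the local background it reversed under Cispl (0.99) and Oxali + IFNγ (0.989). So did the ratio to Ctrl at Ifnar1 -9275 under Oxali (0.987), Cispl (0.851), IFNγ (0.980) and Oxali + IFNγ (0.860), values chosen after seeing the data. With flanks of 5 kb the median reversed under Oxali (0.824), Cispl (0.773), Oxali + IFNγ (0.820) and Oxali + IFNγ to IFNγ (0.983). The cause of these reversals was not tested. With a single −log10 p of at least 3, every count stayed within 1.5 times that reported. With the cluster as 1 span or regions called in every list, each median kept its side of 1, although with the latter it came near 1 under Cispl (1.02 rather than 1.16) and Oxali + IFNγ (1.01 rather than 1.2).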

Other observations

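Between the windows of Il10rb and Ifnar1 lie 5 further regions of the receptor cluster that belong to no gene window. The strongest (chr16:91451981-91453133) had a level of 48.2 in Ctrl, 38.0 under Oxali, 38.8 under Cispl, 42.8 under IFNγ and 41.7 under Oxali + IFNγ, so it was higher than the start-site region of Il10rb in every list and highest in Ctrl. The region at chr16:91447133-91447820 had levels of 7.27 under Oxali, 8.14 under Cispl and 6.20 under Oxali + IFNγ, and was in neither the Ctrl nor the IFNγ list. Next to it, chr16:91447921-91448070 was in the Cispl list only, at 5.30. The region at chr16:91460066-91460333 was in all lists at 4.94, 4.08, 4.72, 6.13 and 4.49, and here IFNγ was highest.

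The decoy receptor gene Il22ra2, which neighbors Ifngr1, had no called start-site region in any list, and the intronic region that it shares with the Ifngr1 window was the only called region within 20 kb of it. Among regions between genes in the cluster, the one at -19999 bp of Ifnar2 and the one at -19378 bp of Ifngr2 were the 2 places where Oxali + IFNγ had the highest level of all 5 lists at more than 10 times the background.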
